A study of Homo sapiens with 6 samples.

Results

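The members described here are the expressed genes of chromosome 13, taken in order of their start position on the human genome build hg38. A gene was a member where its estimated count, averaged over the 6 RNA-seq libraries, was 50 or more. That rule chose 297 of the 647 chromosome 13 genes in the count table, which held 30270 genes in all. The members comprised 223 protein-coding genes, 34 long noncoding RNAs and 37 pseudogenes of several kinds, with 3 genes of other biotypes. The positions at issue, a lowered run around 50 to 60 Mb and a raised run beyond 110 Mb, were chosen by the log2 fold changes of the same libraries. Fold changes along the chromosome are therefore a description of these libraries, and no test of the runs is given.

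HEK 293T cells are an immortalized human embryonic kidney line that carries the SV40 large T antigen, and their total RNA was sequenced once ribosomal RNA had been removed. The study compared 3 wild-type (WT) libraries with 3 libraries of a TENT3A/B double knockout (ΔTUT4/7), which lacks both terminal uridylyltransferases by its label, to learn how loss of these enzymes changes the transcriptome. No treatment was applied to either group. WT cells came from a cell bank and the ΔTUT4/7 line from another laboratory, so the knockout and the separate culture history of the lines cannot be told apart. Each group holds 3 replicate libraries of a single line.

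TUT4 and TUT7 add uridines to RNA 3′ ends, which marks messenger RNAs and microRNA precursors for decay or processing. Chromosome 13 is an acrocentric, gene-poor chromosome that carries the tumour suppressors RB1 and BRCA2, the DLEU locus with miR-15a and miR-16-1, and the miR-17~92 cluster. The files held RNA counts alone, so DNA copy number was not tested, and fewer gene copies and less RNA per copy cannot be told apart in bulk RNA.

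The count of the targeted genes went against the label for 1 of the 2 targets. TUT4 was at 212, 216 and 206 CPM (counts scaled to a library of fixed size) in WT and at 882, 920 and 917 CPM in the libraries labelled ΔTUT4/7 (log2 fold change 2.10 ± 0.04 SE, edgeR quasi-likelihood FDR 7.89e-19). TUT7 was at 60.4, 62.7 and 64.8 CPM in WT and at 27.2, 25.2 and 26.5 CPM in ΔTUT4/7 (log2 fold change -1.25 ± 0.06, FDR 2.20e-13). A gene count includes exons outside a deleted part, and protein was not analysed here. Below, ΔTUT4/7 stands for the libraries so labelled. Library totals ran from 18757228 to 33148937 estimated counts. Of 9 markers of HEK 293T cells, 8 were tested and present in all WT libraries, from PAX2 at 1.81 to 2.39 CPM to NEFM at 879 to 1110 CPM. In ΔTUT4/7 NEFM was at most 0.0511 CPM and VIM was at 1244 to 1255 CPM against 470 to 513 CPM in WT. Of 6 markers of other cell types, COL1A1 alone was tested, at 18.7 to 21.7 CPM in WT and 6.55 to 8.07 CPM in ΔTUT4/7. The part of these marker differences in the values of chromosome 13 was not tested.

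CPM values are relative to library totals scaled by TMM factors, and a log2 fold change is ΔTUT4/7 over WT. Its standard error is the absolute log2 fold change over the square root of the quasi-likelihood F statistic of 3 against 3 libraries. That F statistic uses a spread per gene that is moderated across all tested genes. Chromosome 13 genes took 1.77% to 1.87% of all counts in WT and 1.61% to 1.64% in ΔTUT4/7. The chromosome was partitioned into runs of at least 8 members by least absolute deviation of the log2 fold changes, with a penalty for each border. This gave 4 stretches and 3 borders. A stretch was taken as shifted where its median was 0.5 or more from 0.

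**Figure D1:**
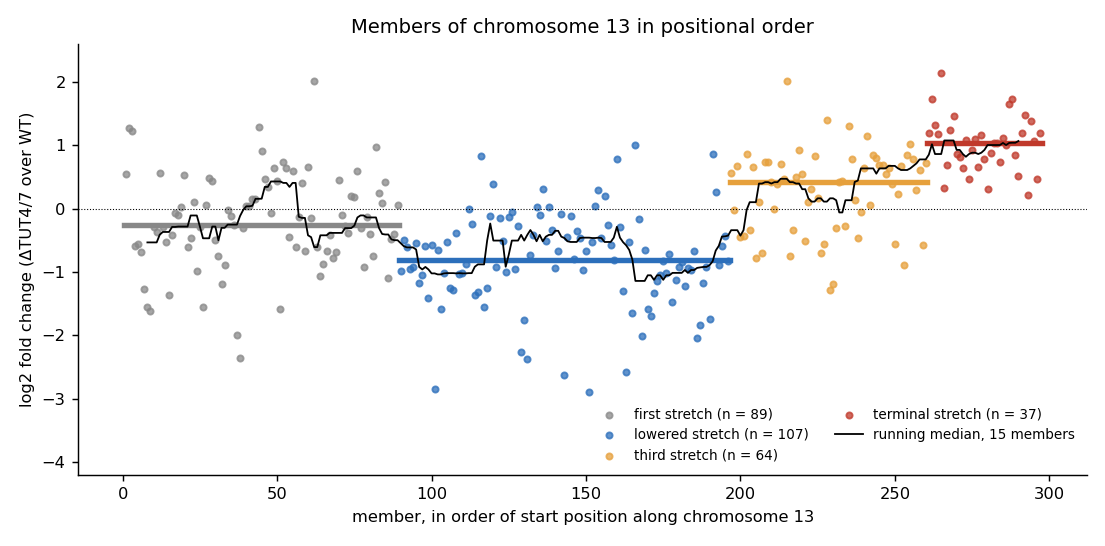
Log2 fold change (ΔTUT4/7 over WT, y axis) of the 297 members in order of start position (x axis, member number), with 1 point per member, coloured bars for the median of each stretch and a black line for the running median of 15 members. Medians step from -0.25 to -0.80, then to 0.42 and to 1.04 at the right end, where no member lies below 0.

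The first stretch ran from KMT5AP1 (start 18297554) to PROSER1 (start 39009865) with 89 members and a median log2 fold change of -0.25. The lowered stretch ran from NHLRC3 (start 39038306) to BORA (start 72727749), held 107 members in 33.7 Mb and had a median of -0.80. The third stretch, DIS3 (start 72752169) to TMTC4 (start 100603625), had 64 members and a median of 0.42. The terminal stretch, TPP2 (start 102596986) to CHAMP1 (start 114314482), had 37 members in 11.7 Mb and a median of 1.04. Below 0 lay 54 members of the first stretch, 95 of the lowered, 21 of the third and none of the terminal stretch. The middle of the members, from the lower to the upper quartile, lay between -1.17 and -0.36 in the lowered stretch and between 0.74 and 1.20 in the terminal stretch, so these middle ranges did not overlap. Over the members that overlap no other gene of the table, a set chosen after seeing the data, the medians were -0.12 (40 members) in the first, -0.60 (30) in the lowered, 0.72 (19) in the third and 1.07 (14) in the terminal stretch, so the step from the third to the terminal stretch was smaller there.

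**Figure D2:**
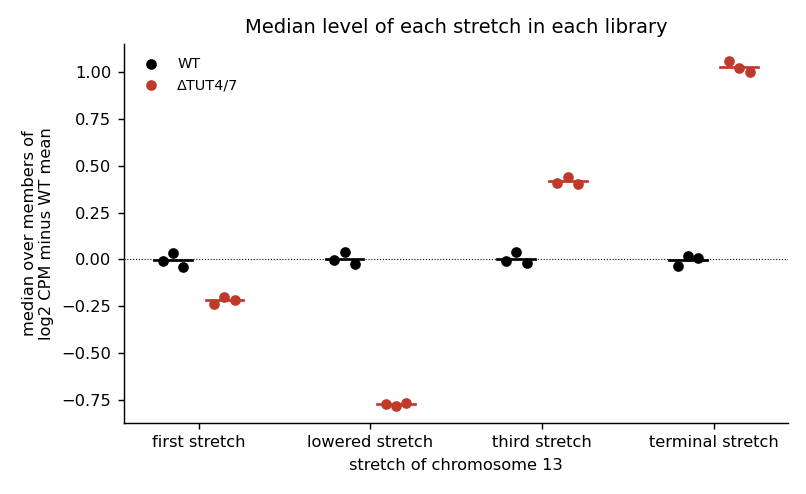
Median over the members of a stretch of log2 CPM minus the gene's WT mean (y axis), 1 point per library, for WT (black) and ΔTUT4/7 (red) in each of the 4 stretches, with lines at group means. The 3 ΔTUT4/7 libraries lie between -0.78 and -0.77 in the lowered stretch and between 1.00 and 1.06 in the terminal stretch, and WT libraries stay between -0.04 and 0.04 in every stretch.

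The shifts were alike in every replicate library. In the lowered stretch the member median, relative to the WT mean of each gene, was -0.78, -0.78 and -0.77 in ΔTUT4/7 libraries 1 to 3. In the terminal stretch it was 1.06, 1.02 and 1.00. WT libraries ranged from -0.03 to 0.04 in the former and from -0.04 to 0.02 in the latter. Members of the lowered stretch took 0.759% to 0.807% of all counts in WT and 0.464% to 0.474% in ΔTUT4/7, and those of the terminal stretch 0.0806% to 0.0809% and 0.144% to 0.146%.

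Across all 297 members, 107 were called higher and 144 lower at FDR under 0.05 (edgeR quasi-likelihood test over all 23952 tested genes). The same calls were made for 28.6% and 29.0% of all tested genes, and for 39.2% and 31.7% of the 15574 tested genes that met the members' count limit. Called with a change of 2-fold or more were 31 members higher and 50 lower. Among all tested genes those shares were 5.90% and 12.4%, and among genes that met the count limit they were 5.59% and 8.25%. The 3 ΔTUT4/7 libraries all lay above the 3 WT libraries for 108 members and all below for 146, against 41.0% and 33.2% of the genes that met the count limit. By stretch, 46 members were called lower and 25 higher in the first, 83 and 8 in the lowered, 15 and 38 in the third, and 0 and 36 in the terminal stretch. Since the contrast itself pointed out the stretches, these counts are given as a description.

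Fixed windows of 10 Mb describe the same fold changes without a fitted border. The windows at 50 to 60 Mb and beyond 110 Mb were chosen by these values, so their medians and ranks are a description. The 31 members starting at 50 to 60 Mb had a median of -1.01, with 29 below 0, and those at 40 to 50 Mb a median of -0.59. The 24 members starting beyond 110 Mb had a median of 1.02 with none below 0, and the 18 at 100 to 110 Mb a median of 0.84. The 28 members at 90 to 100 Mb had a median of 0.50, with 20 above 0. Among 266 windows of the genome with 20 or more such genes, 50 to 60 Mb of chromosome 13 ranked 3rd from the lowest and beyond 110 Mb ranked highest. The lowest running median of 15 members, -1.14, was centred on FAM124A (start 51222334), and the highest, 1.08, on BIVM (start 102799119).

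The borders of the main partition were examined with the promoters of the genes beside them. A fitted border lies between neighbouring members and does not place a change of level at a base. The left border of the lowered stretch moved under other settings, as given below. PROSER1 and NHLRC3 point away from each other with 216 bases between their annotated ends, and the border lay between them. The sequences below run 5′ to 3′ on the strand of the gene from 250 bases before to 50 bases after a RefSeq start (GRCh38.p14), with CG dinucleotides in capitals. All 6 genes beside the borders had a RefSeq promoter, and the first NHLRC3 window also covers most of the PROSER1 window on the other strand.
NHLRC3 (chr13:39038061-39038360, plus strand): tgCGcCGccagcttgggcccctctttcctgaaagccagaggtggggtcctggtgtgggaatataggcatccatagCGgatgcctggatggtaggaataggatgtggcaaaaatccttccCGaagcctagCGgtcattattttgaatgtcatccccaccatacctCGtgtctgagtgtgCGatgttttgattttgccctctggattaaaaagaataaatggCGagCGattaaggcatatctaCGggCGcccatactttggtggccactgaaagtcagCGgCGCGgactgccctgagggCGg
BORA (chr13:72727673-72727972, plus strand): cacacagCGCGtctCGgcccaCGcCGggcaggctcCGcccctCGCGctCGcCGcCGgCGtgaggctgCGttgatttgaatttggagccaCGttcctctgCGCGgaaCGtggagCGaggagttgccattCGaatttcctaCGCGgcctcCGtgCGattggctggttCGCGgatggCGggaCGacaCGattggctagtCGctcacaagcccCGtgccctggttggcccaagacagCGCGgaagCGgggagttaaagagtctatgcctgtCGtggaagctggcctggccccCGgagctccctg
DIS3 (chr13:72781851-72782150, minus strand): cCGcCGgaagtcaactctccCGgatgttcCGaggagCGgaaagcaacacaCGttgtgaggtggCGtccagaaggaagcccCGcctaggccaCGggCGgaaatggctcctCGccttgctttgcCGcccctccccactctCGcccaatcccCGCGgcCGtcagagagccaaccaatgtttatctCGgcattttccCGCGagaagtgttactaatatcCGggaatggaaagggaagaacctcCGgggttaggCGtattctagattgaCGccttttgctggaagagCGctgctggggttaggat
TPP2 (chr13:102596736-102597035, plus strand): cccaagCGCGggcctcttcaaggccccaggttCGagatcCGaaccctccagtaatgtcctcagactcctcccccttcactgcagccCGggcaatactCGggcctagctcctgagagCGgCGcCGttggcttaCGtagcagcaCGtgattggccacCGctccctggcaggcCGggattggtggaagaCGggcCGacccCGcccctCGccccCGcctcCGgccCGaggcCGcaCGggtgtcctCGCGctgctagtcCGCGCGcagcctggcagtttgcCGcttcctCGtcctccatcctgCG

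The printed NHLRC3 window held 15 CG dinucleotides, the BORA window 35, the DIS3 window 24 and the TPP2 window 30. Of the windows not printed, that of PROSER1 held 13, a second of NHLRC3 18 and that of TMTC4 36. TMTC4, just before the terminal border, thus had more than TPP2. The median over 35116 RefSeq promoters was 14. That set is not limited to expressed genes and can hold several windows of a gene, whereas each member was matched to a single window. The members' promoters matched by symbol, 215 in all, had a median of 27. By stretch the median was 27, 25, 27.5 and 35 CG dinucleotides, with the highest value in the terminal stretch. Short promoter motifs were searched on both strands, and none of those searched contains another. The letters TATAAA were present in 5.56% of 72 promoters in the lowered and 6.45% of 31 in the terminal stretch. In the first and the third stretch the shares were 10.9% of 64 and 12.5% of 48. Among all members' promoters the share was 8.84%, and among all promoters 11.5%. These differences rest on few promoters and were not tested. The letters CCAAT were present in 37.2% of all members' promoters and 34.6% of all promoters. In promoters of the lowered and the terminal stretch the shares were 36.1% and 38.7%. The letters GGGCGG were present in 62.5% and 61.3% of them, in 60.9% and 56.2% in the first and the third stretch, and in 60.5% of all members' promoters, against 45.0% of all promoters. Median GC content of the transcripts was 41.8% in the lowered and 46.2% in the terminal stretch, and median transcript length 3474 and 4697 bases.

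**Figure D3:**
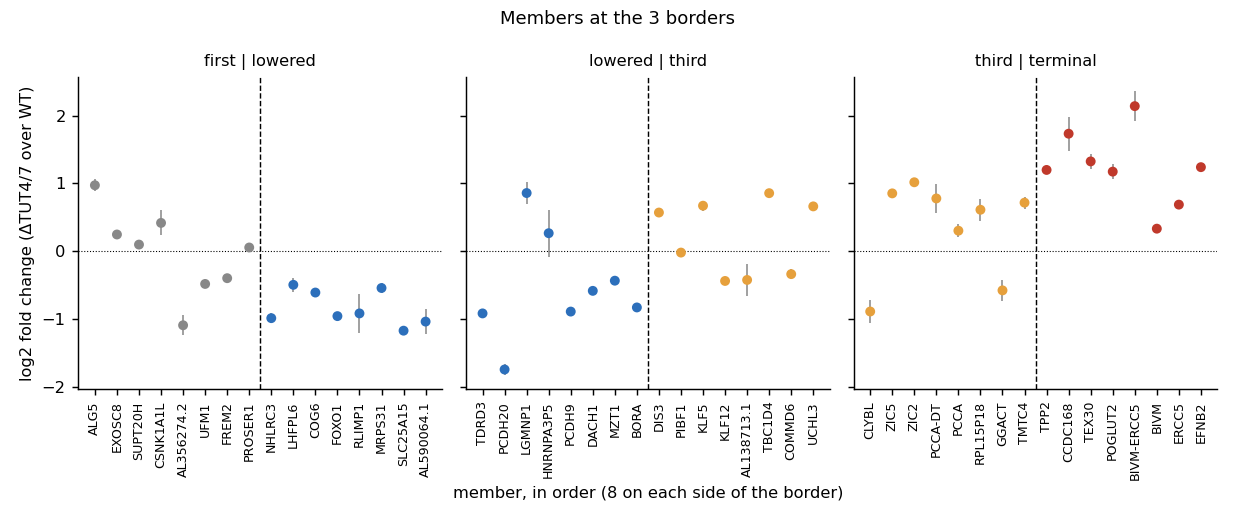
Log2 fold change with SE (y axis) of the 8 members on each side of each border (x axis, members in order), coloured by stretch, with a dashed line at the border. NHLRC3 lies at -0.99 directly after PROSER1 at 0.05, DIS3 at 0.57 directly after BORA at -0.83, and TPP2 at 1.20 after TMTC4 at 0.72.

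At the left border, PROSER1, a proline- and serine-rich protein, was at 147, 150 and 150 CPM in WT and 152, 157 and 155 CPM in ΔTUT4/7 (log2 fold change 0.05 ± 0.04, not called). NHLRC3, which carries NHL repeats, was at 51.0, 60.5 and 50.4 CPM in WT and 27.9, 27.1 and 26.5 CPM in ΔTUT4/7 (-0.99 ± 0.07). All ΔTUT4/7 libraries lay below all WT libraries for NHLRC3, and slightly above them for PROSER1. Before this border the values were mixed. Directly before PROSER1 lay AL356274.2 at -1.09 ± 0.15, UFM1 at -0.48 ± 0.05 and FREM2, a basement membrane protein, at -0.40 ± 0.06. Farther from the border EXOSC8, an exosome subunit, was at 0.25 ± 0.06. After the border LHFPL6 was at -0.50 ± 0.10. COG6, a Golgi tethering subunit, and the transcription factor FOXO1 stood at -0.61 ± 0.06 and -0.96 ± 0.06.

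At the right border of the lowered stretch, BORA, an activator of Aurora A kinase, was at 75.8, 84.0 and 77.2 CPM in WT and 44.1, 41.2 and 47.9 CPM in ΔTUT4/7 (-0.83 ± 0.06). DIS3, the catalytic ribonuclease of the exosome, was at 218, 230 and 226 CPM in WT and 324, 347 and 329 CPM in ΔTUT4/7 (0.57 ± 0.04). Both genes were separated between the groups, in opposite directions. Their annotated 3′ ends overlap by 4030 bases on opposite strands. The read strand used in counting is not given in the sources used here, so reads from the overlap may be assigned to either gene. Between 61409685 (PCDH20) and 66302834 (PCDH9) the only members were the pseudogenes LGMNP1 (0.86 ± 0.17) and HNRNPA3P5. DACH1, MZT1 and BORA then remained below 0, and past DIS3 PIBF1 was at -0.02 ± 0.06, KLF5 at 0.67 ± 0.07 and KLF12 at -0.44 ± 0.05.

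The terminal border fell in a gap of 1921892 bases without a member. TMTC4, a mannosyltransferase, was at 12.5, 11.8 and 12.2 CPM in WT and 20.9, 20.1 and 18.7 CPM in ΔTUT4/7 (0.72 ± 0.09). TPP2, a large cytosolic peptidase, was at 47.5, 53.8 and 52.8 CPM in WT and 117, 121 and 117 CPM in ΔTUT4/7 (1.20 ± 0.05). Both lay above WT in all libraries, so the border marks a change in size rather than in direction. The step to 0.42 at DIS3 and the step to 1.04 at TPP2 were separated by values on both sides of 0, with the developmental transcription factors ZIC5 at 0.85 ± 0.07 and ZIC2 at 1.02 ± 0.06 shortly before TMTC4.

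Border positions were less stable than the shifts. The right edge of the lowered stretch was BORA in each of the 3 ΔTUT4/7 libraries set against the WT mean alone. The left edge was NHLRC3 in libraries 1 and 3 and DLEU7 (start 50519364) in library 2. The terminal stretch began at TPP2 in libraries 2 and 3 and at TMTC4 in library 1. With a penalty of 1 in place of 2 times log(n), 9 stretches were found, and neither the NHLRC3 border nor the border between BORA and DIS3 was kept. Within the former lowered stretch lay FOXO1 to SERP2 (26 members, median -1.02), TSC22D1 to ST13P4 (43 members, median -0.44) and DLEU7 to PCDH20 (29 members, median -1.12). NHLRC3 and COG6 fell in a run from B3GLCT to COG6 with a median of -0.40, and the members from LGMNP1 to BORA in a run that reached DNAJC3 with a median of 0.13. The terminal stretch was unchanged in that finer partition, with 37 members and a median of 1.04. Directly before it, UGGT2 to TMTC4 formed a run of 21 members with a median of 0.64, which met the limit for a shifted stretch. CDK8 to HSPH1, in the first stretch, formed a run of 23 members with a median of 0.34.

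Within the lowered stretch, the 3 members with the highest counts all fell. TPT1, a translationally controlled growth protein, was at 1197, 1211 and 1186 CPM in WT and 822, 900 and 816 CPM in ΔTUT4/7 (-0.50 ± 0.04). CKAP2, a spindle protein, was at 539, 548 and 561 CPM in WT and 302, 319 and 303 CPM in ΔTUT4/7 (-0.84 ± 0.04). SUGT1, a co-chaperone of HSP90, was at 304, 331 and 309 CPM in WT and 198, 199 and 200 CPM in ΔTUT4/7 (-0.66 ± 0.04). In each case every ΔTUT4/7 library lay below every WT library.

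Among members with a mean count of 100 or more, 4 of the 5 largest falls on the chromosome lay in this stretch. LPAR6, a lysophosphatidic acid receptor, was at 15.7, 17.0 and 14.7 CPM in WT and 2.65, 2.73 and 2.25 CPM in ΔTUT4/7 (-2.63 ± 0.13). It is transcribed from an intron of RB1 on the other strand, and RB1 itself was at 141, 152 and 145 CPM against 91.7, 91.3 and 93.9 CPM (-0.67 ± 0.05). PCDH17, a protocadherin, was at 72.4, 61.1 and 57.3 CPM in WT and 17.4, 18.8 and 17.2 CPM in ΔTUT4/7 (-1.83 ± 0.08). PCDH20 was at 41.7, 40.7 and 42.6 CPM in WT and 13.1, 12.2 and 11.8 CPM in ΔTUT4/7 (-1.75 ± 0.07). AL442636.1, a long noncoding RNA gene by the table, was at -2.04 ± 0.15. PHF11, a PHD finger protein with fewer counts, was at -2.89 ± 0.22.

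Exceptions stood between lowered neighbours. FAM124A, the member farthest above the median of its stretch, was at 3.31, 2.88 and 2.45 CPM in WT and 5.37, 6.13 and 5.72 CPM in ΔTUT4/7 (1.00 ± 0.16). NUFIP1, which acts in small nucleolar RNP assembly, was at 28.6, 27.5 and 28.0 CPM in WT and 35.4, 38.8 and 36.3 CPM in ΔTUT4/7 (0.39 ± 0.07). KPNA3, an importin alpha, was at 0.29 ± 0.05. Both groups were separate for these 3 genes, in the direction opposite to their stretch. ESD, an esterase, and EBPL, at 0.03 and 0.04, were not called and their groups overlapped. In total 12 of the 107 members lay above 0, and 8 of these were called higher. Of the 12, 4 were processed pseudogenes, whose estimated counts can share reads with a parent gene elsewhere.

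Medians are given by gene kind as a description, with no test of the difference. In the lowered stretch the median was -0.76 over 74 protein-coding genes, -1.24 over 15 long noncoding RNAs and -0.35 over 17 pseudogenes. Several of these long noncoding RNAs had low counts and met the limit of 50 mainly through WT. AL354696.2 averaged 6.79 CPM in WT and 0.98 CPM in ΔTUT4/7, and RNASEH2B-AS1 5.68 and 0.97 CPM. Others differed less, such as ENOX1-AS1 at 2.26 and 1.91 CPM. The part of the count limit in the difference between kinds was not tested. Kinds also stood apart in the stretches that were not shifted, with long noncoding RNAs at -0.27 against 0.44 for protein-coding genes in the third and pseudogenes at 0.48 against -0.27 in the first. In the terminal stretch 34 of the 37 members were protein-coding, with a median of 1.04. Genes of chromosome 13 that were tested but had a mean count under 50, and so were not members, numbered 68 within the lowered stretch, with a median of -1.14 and 61 below 0. Within the terminal stretch there were 17, with a median of 0.99 and 13 above 0. A gene with few counts passes the count filter through the group in which it is higher, so these values describe such genes only. Beside the limit of 50, SUGT1-DT and ADPRHL1 stood just outside at mean counts of 48.3 and 49.8 with log2 fold changes of -1.15 and 1.03, and ENOX1-AS1 and HNRNPA1P29 just inside at 50.3 and 51.2 with -0.23 and -0.31.

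**Figure D4:**
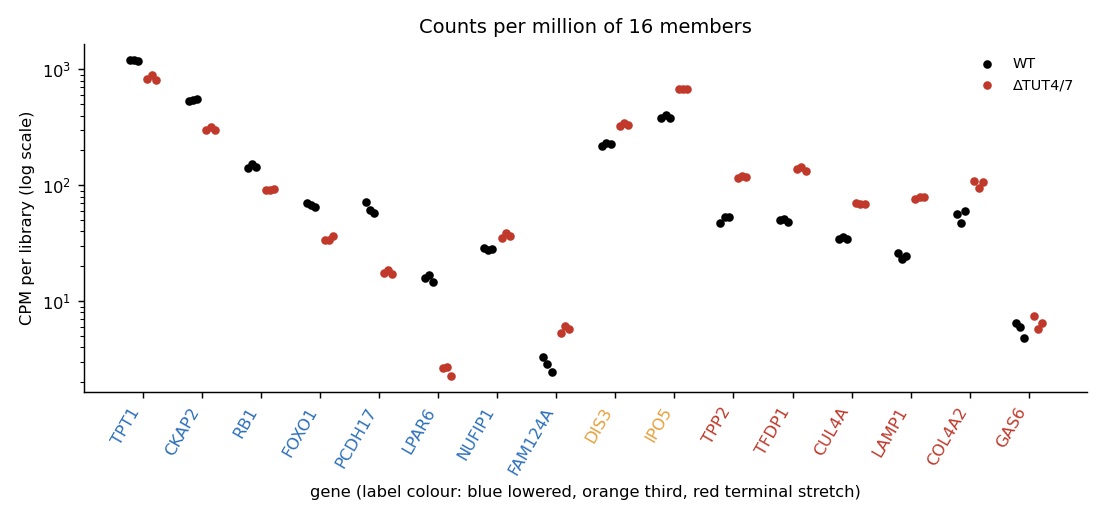
CPM (y axis, log scale) of 16 members in each library, 3 WT (black) and 3 ΔTUT4/7 (red), with label colours for the stretch. Lowered-stretch genes such as LPAR6 lie lower in ΔTUT4/7, NUFIP1 and FAM124A lie higher despite their position, and terminal-stretch genes lie higher except GAS6, whose groups overlap.

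In the terminal stretch, TFDP1, the dimerization partner of E2F, had the highest count. It was at 49.8, 51.0 and 48.2 CPM in WT and 137, 144 and 133 CPM in ΔTUT4/7 (1.48 ± 0.05). COL4A2, a basement membrane collagen chain, was at 56.8, 47.2 and 60.5 CPM in WT and 110, 95.5 and 107 CPM in ΔTUT4/7 (0.93 ± 0.09). COL4A1, transcribed in the opposite direction from an overlapping start region, was at 0.46 ± 0.07. All 3 genes were separated between the groups and higher in ΔTUT4/7.

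LAMP1, a lysosomal membrane glycoprotein, was at 26.2, 23.2 and 24.8 CPM in WT and 76, 79.1 and 78.6 CPM in ΔTUT4/7 (1.66 ± 0.06). Its neighbour GRTP1, a TBC domain protein, was at 4.89, 3.88 and 3.81 CPM in WT and 13.9, 15.3 and 12 CPM in ΔTUT4/7 (1.73 ± 0.13). CUL4A, a cullin scaffold of ubiquitin ligases, was at 34.1, 36.0 and 34.2 CPM in WT and 70.6, 69.4 and 69.2 CPM in ΔTUT4/7 (1.00 ± 0.06). These rises were at or above 2-fold. CHAMP1, the last member before the telomere and a protein of chromosome alignment, was at 1.20 ± 0.07.

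The terminal member with the smallest value was GAS6, a ligand of TAM receptor kinases, at 6.46, 5.96 and 4.79 CPM in WT and 7.43, 5.77 and 6.44 CPM in ΔTUT4/7 (0.21 ± 0.15, not called). Its groups overlapped, and it was the only member of the stretch that was not called. The largest value was that of BIVM-ERCC5, a readthrough of BIVM and ERCC5, at 1.58, 1.19 and 2.12 CPM in WT and 5.58, 9.02 and 7.51 CPM in ΔTUT4/7 (2.14 ± 0.22). Reads of this readthrough overlap those of BIVM (0.33 ± 0.07) and of the repair endonuclease ERCC5 (0.69 ± 0.07), so the division among the 3 is uncertain.

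Outside the shifted stretches, single genes moved as far as the members inside them. SLAIN1, a microtubule plus-end protein of the third stretch, was at 18.9, 17.8 and 15 CPM in WT and 68.3, 68.2 and 70.7 CPM in ΔTUT4/7 (2.02 ± 0.07). HSPH1, an HSP110 chaperone of the first stretch, was at 114, 124 and 112 CPM in WT and 463, 482 and 468 CPM in ΔTUT4/7 (2.01 ± 0.05). SHISA2, an endoplasmic reticulum regulator of FGF and WNT receptors, was at 11.8, 11.7 and 10.6 CPM in WT and 2.53, 1.70 and 2.30 CPM in ΔTUT4/7 (-2.35 ± 0.15). SHISA2 and HSPH1 lie in the same stretch and moved in opposite directions. In the third stretch the glypicans GPC5 and GPC6 were at -1.29 ± 0.22 and -1.19 ± 0.07 among neighbours of both signs.

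MicroRNA host genes were of interest because TUT4 and TUT7 act on microRNA precursors and because the 2 best known clusters of chromosome 13 lie in different stretches. MIR17HG, the host of miR-17~92 in the third stretch, was at 36.5, 56.6 and 48.0 CPM in WT and 117, 140 and 120 CPM in ΔTUT4/7 (1.40 ± 0.18). DLEU2, the host of miR-15a and miR-16-1 in the lowered stretch, was at 58.2, 66.5 and 57.9 CPM in WT and 65.6, 77.1 and 67.4 CPM in ΔTUT4/7 (0.20 ± 0.07), so its groups overlapped although it was called higher. The mature strands below are from RefSeq, with the seed (bases 2 to 8) in capitals. Small RNA was not analysed here, so the host values say nothing of the mature levels.
miR-17-5p: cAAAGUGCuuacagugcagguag
miR-20a-5p: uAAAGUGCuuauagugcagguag
miR-18a-5p: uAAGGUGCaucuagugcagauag
miR-19a-3p: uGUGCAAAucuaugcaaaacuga
miR-19b-3p: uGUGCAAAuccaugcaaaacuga
miR-92a-3p: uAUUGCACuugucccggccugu
miR-15a-5p: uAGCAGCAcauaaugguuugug
miR-16-5p: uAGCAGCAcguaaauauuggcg

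By seed, miR-17-5p and miR-20a-5p shared AAAGUGC, miR-19a-3p and miR-19b-3p shared GUGCAAA, and miR-15a-5p and miR-16-5p shared AGCAGCA. The host of the miR-17 and miR-19 pairs stood at 1.40 and that of miR-15a and miR-16 at 0.20. Members near DLEU2 lay both above and below it. KPNA3 was at 0.29 ± 0.05 and AL137060.1, within the span of DLEU2, at 0.79 ± 0.17. TRIM13, an E3 ligase gene that starts within DLEU2 on the other strand, was at -0.27 ± 0.05, and DLEU1 at -0.80 ± 0.06. Reads of DLEU2 and TRIM13 in their overlap cannot be told apart without strand.

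The members were also grouped into 7 lists by function or locus. For every list count below, the share called among all tested genes at the count limit was 39.2% higher and 31.7% lower, and the contrast that gave the stretches gave these counts too, so they are a description. The list of the 13q14 lymphoid deletion interval and its neighbours is defined by position and lay wholly in the lowered stretch. Its median is therefore no result apart from that stretch. The 33 members had a median of -0.71, against -0.80 for the stretch and -0.02 for all tested genes. Of these, 29 were called lower, 3 higher and 1 was not called. ITM2B, a transmembrane processing substrate, was at -0.94 ± 0.05, FNDC3A at -0.80 ± 0.05 and VPS36, an ESCRT-II subunit, at -0.93 ± 0.05. ATP7B, a copper transporter, was at -1.14 ± 0.07 and its divergent neighbour ALG11, a mannosyltransferase, at -1.05 ± 0.05.

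The DNA repair, replication and tumour suppression list had 15 members, 7 called higher and 7 lower, with a median of -0.07. All 5 of its terminal members were called higher, namely ERCC5, the end-joining ligase LIG4 (0.82 ± 0.09), ING1 (1.16 ± 0.12), TFDP1 and CHAMP1. All 4 of its lowered-stretch members were called lower, namely RB1, RNASEH2B (-0.53 ± 0.05), CKAP2 and BORA. BRCA2, a homologous recombination mediator of the first stretch, was at 204, 225 and 205 CPM in WT and 112, 121 and 112 CPM in ΔTUT4/7 (-0.88 ± 0.05), while the replication factor subunit RFC3 of the same stretch was at 0.20 ± 0.05.

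The list of RNA processing, decay and microRNA hosts had 15 members, 10 called higher and 5 lower, with a median of 0.39. RBM26 and DIS3 of the third stretch were at 0.55 ± 0.04 and 0.57 ± 0.04, and UPF3A, a nonsense-mediated decay factor of the terminal stretch, at 0.47 ± 0.08. Its lowered-stretch members went both ways, with WBP4, a spliceosome protein, at -1.41 ± 0.10 and INTS6, an Integrator subunit, at -0.17 ± 0.05 against NUFIP1 and DLEU2 above 0. The transcription factor list had 17 members, 5 called higher and 8 lower, with a median of -0.15. ZMYM2 of the first stretch fell (-1.27 ± 0.05), as did ELF1 (-0.59 ± 0.06), and GTF3A, the 5S RNA gene factor, rose (0.92 ± 0.06).

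The ubiquitin and chaperone list had 21 members, 11 called higher and 8 lower, with a median of 0.16 that fell to 0.04 under scaling by library size alone. KBTBD7, a cullin adaptor of the lowered stretch, was at -1.59 ± 0.07, and the terminal CDC16, a subunit of the anaphase-promoting complex, and DCUN1D2 at 1.07 ± 0.06 and 0.85 ± 0.10. The adhesion, matrix and guidance list had 13 members, 10 called lower and 3 higher, with a median of -0.70. The 3 called higher were the 3 terminal members COL4A1, COL4A2 and EFNB2, an ephrin ligand (1.24 ± 0.07). DIAPH3, a formin, was at -1.17 ± 0.04 and PCDH9 at -0.89 ± 0.05. The list of membrane traffic, lysosome and transport had 17 members, 9 called higher and 7 lower, with a median of 0.29. IPO5, an importin, and ABCC4, an efflux transporter, of the third stretch were at 0.81 ± 0.04 and 1.31 ± 0.07, and the terminal RASA3 and ATP11A at 1.38 ± 0.14 and 1.04 ± 0.06.

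**Figure D5:**
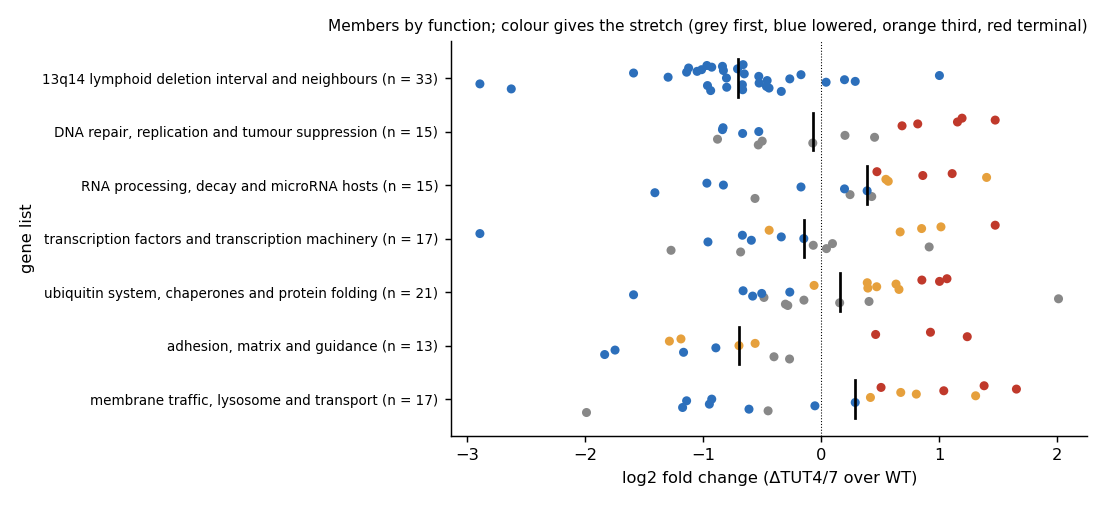
Log2 fold change (x axis) of the members of 7 gene lists (y axis), 1 point per gene, coloured by stretch, with a black line at each list's median. Terminal members (red) lie above 0 in every list that holds any, and lowered-stretch members (blue) mostly below 0, so lists that span stretches have both signs.

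Genes that share a promoter region were set side by side. There were 29 pairs of members on opposite strands that face apart with starts within 1000 bases. Of these, 21 pairs had the same sign and 8 opposite signs. The share of same-sign pairs among all neighbours was not counted, so the 21 cannot be set against it. Some genes, such as COMMD6 and POGLUT2, entered more than a single pair. The median difference within a pair was 0.44, where that between all 296 pairs of neighbouring members was 0.51. In 6 pairs the difference was 1 or more, among them PROSER1 and NHLRC3 at the left border (1.04) and NUFIP1 and GPALPP1 (1.31). ATP7B and ALG11 differed by 0.09 and LIG4 and ABHD13 by 0.18. Some of these pairs overlap, and their values share reads to an unknown extent.

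The same partition was made for the other autosomes and chromosome X. Of the 23 chromosomes, 8 had a stretch with a median of -0.5 or lower and 7 one of 0.5 or higher. Both kinds were found on 2 of them, of which chromosome 13 was 1. In chromosome 13, 48.5% of the genes lay in a shifted stretch, the second largest share after 54.8% in chromosome 4. The difference between chromosomes was not tested.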

How the data were processed

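The authors aligned paired-end reads of ribosomal RNA-depleted RNA to hg38 with STAR 2.7.3a and quantified an Ensembl annotation in Partek Flow 10.0.22. The deposited table holds estimated counts from an expectation-maximisation model, which share reads among overlapping or similar genes. A second deposited table holds the authors' own comparison (p-values, FDR, fold changes, group means) and was not used. Estimated counts were rounded, genes with a largest count above 12 were kept (23952), scaled by TMM and tested with edgeR 4.0.16 (R 4.3.3, glmQLFit and glmQLFTest), adjusted by Benjamini-Hochberg over all tested genes. The test and the partition were tested on simulated data. Alternatives used limma 3.58.1, DESeq2 1.42.0 and others. GENCODE release 44 gave GC content and length for 296 of 297 members. For 568 of the 590 chromosome 13 genes that share the annotated start, the table's stop position is 1 base beyond the annotated end, and all ends are printed with 1 base removed.

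Named genes were those beside borders, the 3 highest counts and the farthest member each way in shifted stretches, the 5 largest changes each way among called members averaging at least 100 counts, and listed members. A few further neighbours and exceptions were chosen after their values were seen. Members and lists were chosen with earlier results of these data known. P-values and standard errors measure the spread between libraries of 1 line each.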

Additional observations from a re-analysis of the deposited data

How the results depend on the processing

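Of 27 alternative settings, some concerned the borders alone, and a border position has no sign that could reverse. None of the others reversed the sign of the medians at 50 to 60 Mb and beyond 110 Mb. The medians at 50 to 60 Mb and beyond 110 Mb, -1.01 and 1.02, became -1.13 and 0.91 under library size alone, -1.11 and 0.92 under upper-quartile factors, and -1.07 and 0.98 with a GC and length offset. These scalings moved the median of all tested genes from -0.02 to -0.13, -0.12 and -0.09. The median at 50 to 60 Mb was -1.10 with members of a mean count of 20 or more, -0.88 with 200 or more, -0.93 with protein-coding members alone and -0.84 with members that overlap no other gene, a choice made after seeing the data. In that last set the median beyond 110 Mb was 1.13, 43 members were called higher and 43 lower, 18 and 14 of them 2-fold or more, so the balance of calls shifted as well as their number. Its lowered stretch ran from 18297554 to 75525219 and its terminal stretch began at 76880175. With a mean count of 200 or more, 94 members were called lower and 22 of them 2-fold or more, and with protein-coding members alone 32 were 2-fold or more lower.

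The lowered stretch began at 50372788 and ended at 61409685 with a mean count of 20 or more, began at 50519364 and ended at 61409685 with a penalty of 1, ended at 61409685 by least squares, and began at 50519364 in ΔTUT4/7 library 2 alone. The terminal stretch began at 100603625 with a mean count of 20 or more, by least squares and in ΔTUT4/7 library 1 alone, and at 99962964 with a mean count of 200 or more. Without each replicate in turn, the medians ranged from -1.05 to -1 and from 0.99 to 1.04, the calls from 103 to 109 higher and from 136 to 149 lower, 29 to 32 and 47 to 52 of them 2-fold or more, and the terminal start from 99962964 (ZIC5, without WT replicate 1) to 102596986. The edges of the lowered stretch stayed at 39038306 and 72727749. The cause of these moves was not tested.

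Replicate numbers did not pair the samples (correlations 0.0516, -0.0109 and -0.0222). With the replicate block, 108 members were called higher and 146 lower, 31 and 51 of them 2-fold or more, the medians were -1.01 and 1.02, and the borders were at 39038306, 72727749 and 102596986.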
